A study of Caenorhabditis elegans with 4 samples.

Results

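The broad ELT-3 regions are the 272 regions of 1300 bp or more in a list of 5338 places where the transcription factor ELT-3 was called bound in fed first-stage (L1) larvae of the nematode Caenorhabditis elegans. They make up 5.10% of the list, and the other 5066 regions, narrower than 1300 bp, are called the remaining peaks here. The binding map came from chromatin immunoprecipitation and sequencing (ChIP-seq), in which cross-linked DNA fragments carried by the protein are pulled down and sequenced. There were 2 ChIP libraries, from precipitation of the tagged protein with a goat antiserum against EGFP, and 2 input libraries of unprecipitated DNA, with 1 of each kind in each of 2 replicates. All 4 libraries came from hermaphrodites of strain OP75, kept at 20 °C, with the transgene wgIs75 (elt-3::TY1::EGFP::FLAG with unc-119 (+)) in an unc-119 (ed3) III background. The transgene was made by bombardment and the strain was outcrossed 3 times. It is 1 transgenic strain, and no untagged strain was analysed here. The labels state that the fusion is expressed where and when elt-3 normally is.

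ELT-3 is a zinc finger protein of the GATA family, whose members bind short DNA sites around the letters GATA. In C. elegans it acts in the hypodermis, the epidermal tissue that makes the cuticle, downstream of the earlier GATA factor ELT-1, and it is known as a regulator of collagen and other epidermal genes. A peak caller turns read pile-ups into intervals, so a wide interval can hold 1 broad pile-up or several neighbouring ones that were not split. On the C. elegans autosomes genes are denser, and meiotic recombination rarer, in the centre than in the arms, while the X chromosome is more even. No genome of the build of the list (WormBase WS180) was used, so no sequence is shown and no region is assigned to a gene.

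The 272 regions were chosen by width, so their widths and q-values (the p-value of each region adjusted for multiple testing, as the authors' peak caller gave it) are a description. The median broad region was 1918 bp wide, and the middle of the group lay between a lower quartile of 1515 bp and an upper quartile of 2569 bp. The remaining peaks had a median width of 411.5 bp. The broad regions together covered 616.7 kb, which is 20.5% of all sequence in the list. Of the 272 regions, 84 were under 1600 bp, 65 were from 1600 bp to under 2000 bp, 80 from 2000 bp to under 3000 bp, 21 from 3000 bp to under 4000 bp and 22 wider. The edge of the group was not a break in the list. There were 27 peaks from 1250 bp to under 1300 bp and 16 from 1300 bp to under 1350 bp.

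The members just inside the threshold had widths of 1300 bp on chromosome I (5307105 to 5308404, q-value 2.88e-09), 1300 bp on chromosome III (3797021 to 3798320, q-value 8.26e-05) and 1302 bp on chromosome I (527183 to 528484, q-value 4.50e-17). The widest of the remaining peaks measured 1297 bp on chromosome I (5315734 to 5317030, q-value 3.07e-09), 1294 bp on chromosome V (6322869 to 6324162, q-value 7.75e-28) and 1293 bp on chromosome I (4173274 to 4174566, q-value 5.74e-08). The q-values of the 2 sets overlap, and the first region of each lay near the other on the same chromosome.

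Broad regions had lower q-values than the remaining peaks. A q-value below 1e-20 was carried by 147 broad regions, or 54.0%, and by 347 remaining peaks, or 6.85%, against 9.25% of all listed peaks. Below 1e-50 there were 43 broad regions, or 15.8%, and 25 remaining peaks, or 0.493%, against 1.27% of all listed peaks. Width and q-value come from the same reads, so nothing is read from these counts. All of the 10 strongest regions of the list were broad, as were 35 of the 50 strongest and 56 of the 100 strongest. The median q-value was 1.64e-21 for broad regions and 1.28e-05 for remaining peaks.

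Breadth and strength did not go together for every member. The region with the second lowest q-value of the list, on X at 1503387 to 1505307, was 1921 bp wide, near the median of the broad regions. Its nearest other peak lay 22012 bp away, and its nearest other broad region 491.5 kb away. At the other end, 22 broad regions had q-values above 1e-05. Below it lay 91.9% of broad regions, 49.0% of remaining peaks and 51.2% of all listed peaks. Of the 22, 7 were on X and 6 in the middle of 3 equal sections of their chromosome. Over all 272 broad regions the shares in these places were 19.1% and 48.5%. The weakest was a region of 1687 bp on chromosome I (8761370 to 8763056, q-value 0.00681, rank 5051 of 5338). It was followed by regions of 1478 bp on chromosome III (4193072 to 4194549, q-value 0.00571) and of 1801 bp on X (5780713 to 5782513, q-value 0.00335). Taken over the 272 broad regions as a description, width against the log-transformed q-value (sign reversed) gave a Spearman coefficient of 0.478 and a Pearson coefficient of 0.607. By chromosome Spearman's coefficient lay between 0.365 on IV and 0.577 on III.

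**Figure D1:**
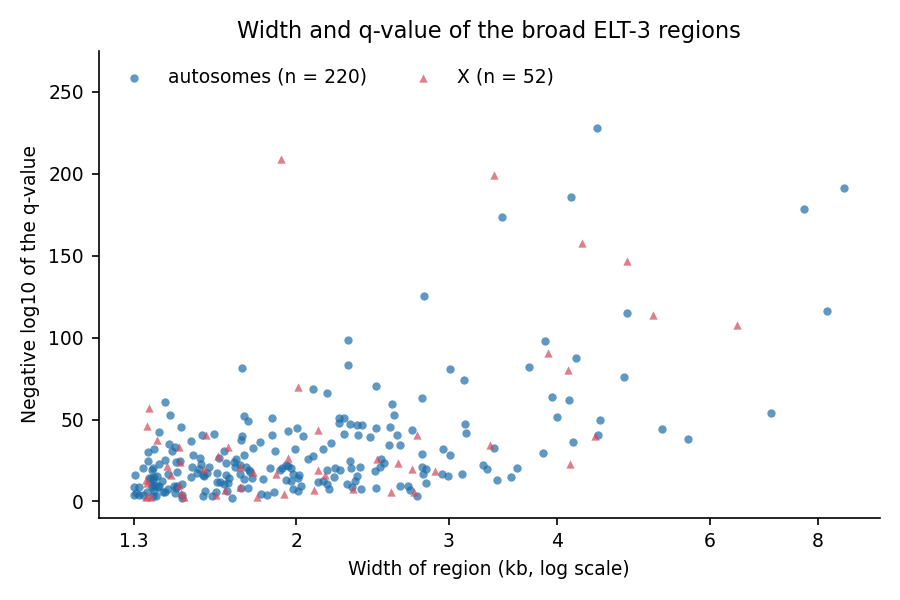
Each point is 1 of the 272 broad regions, with its width in kb on a log axis and the authors' q-value as its negative log10, for the 220 regions on autosomes (circles) and the 52 on X (triangles). Most points lie under 3 kb and below 50, and the X region of 1921 bp is among the highest points.

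Of the 10 widest regions 6 lay in the middle section of their chromosome and 3 were on X, beside 48.5% and 19.1% of all 272 broad regions. With only 10 regions, nothing is read from these counts. The widest was on chromosome I at 7079154 to 7087737 with 8584 bp, and 4 smaller peaks lay within 10 kb of its edges. Chromosome V held the next, of 8195 bp at 6222213 to 6230407, at 29.8% of the length of the chromosome and with 4 smaller peaks within 10 kb. The region of 7715 bp on chromosome II at 7341643 to 7349357 had 3 smaller peaks within that distance. For each of these regions the next broad region was between 199.5 and 281.2 kb away.

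The fourth to sixth widest were on chromosome I at 6577155 to 6584224 (7070 bp, q-value 1.83e-54), on X at 12662760 to 12669222 (6463 bp, q-value 3.20e-108) and on chromosome I at 5375100 to 5380764 (5665 bp, q-value 4.06e-39). Next were a region of 5286 bp at 8934906 to 8940191 on chromosome V (q-value 8.47e-45) and one on X at 6735372 to 6740536 (5165 bp, q-value 1.33e-114). The 10 ended with a region of 4817 bp at 723679 to 728495 on chromosome V (q-value 7.03e-116) and X at 13935868 to 13940681 (4814 bp, q-value 1.16e-147). Of the 10 widest, 7 had another listed region within 500 bp, and in 3 of these that neighbour was itself broad. Chromosomes III and IV had no region among these 10. Their widest measured 4205 bp (III, 9050803 to 9055007) and 4483 bp (IV, 3644773 to 3649255).

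The rule used width alone, so the place of the broad regions was not part of it. Width can depend on whether nearby pile-ups were split, so distances to neighbours and their counts may not be independent of the choice of members. The measures were also chosen with earlier results of these data known. The list holds no value per library, so no spread between replicates exists and no test over samples was possible. Shares are given with exact binomial (Clopper-Pearson) 95% intervals, which treat regions as independent and cover counting error only. The read depth is unknown.

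Broad regions were spread over the chromosomes nearly evenly in number, from 41 on IV to 52 on X. X held 19.1% of the broad regions (interval 14.6% to 24.3%) and 15.4% of the remaining peaks (14.5% to 16.5%), on 17.7% of the length. Chromosome V held 18.0% of the broad regions (13.6% to 23.1%) and 16.2% of the remaining peaks (15.2% to 17.3%). Chromosome IV held 15.1% of the broad regions (11.0% to 19.9%) and 18.4% of the remaining peaks (17.3% to 19.5%), and chromosome I held 16.2% (12.0% to 21.1%) and 17.9% (16.8% to 19.0%). On II the shares were 16.2% and 16.1%, and on III they were 15.4% and 15.9%. On each of the 6 chromosomes the interval of the broad regions took in the share of the remaining peaks.

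As a share of the peaks of each chromosome, broad regions ran from 4.22% on IV (3.05% to 5.68%) to 6.24% on X (4.69% to 8.10%). The intervals of these extremes overlap. Per Mb there were between 2.34 broad regions on V and 3.05 on III, with 2.94 on X. The share of X depended on the joining of neighbours. It was above that of the other peaks at widths of 1000 bp or more (22.7% against 14.9%), 1600 bp or more (18.6% against 15.5%) and 2000 bp or more (18.7% against 15.6%), and in the stronger 50% of the list (18.0% against 16.3%). With listed regions within 500 bp joined into 1, X held 15.7% of the regions of 1300 bp or more and 16.2% of the others, the reverse order.

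Along the chromosomes, 132 of the 272 broad regions, or 48.5% (42.5% to 54.6%), lay in the middle one of 3 equal sections of their chromosome (the central share), against 41.9% (40.6% to 43.3%) of the remaining peaks. The interval of the broad regions did not take in the share of the remaining peaks, though the 2 intervals overlap. On the autosomes alone the central share was 53.2% of 220 broad regions (46.4% to 59.9%) and 42.8% of 4284 remaining peaks (41.3% to 44.3%). The density of broad regions on the autosomes was 4.26 per Mb in the middle sections and 1.87 per Mb in the outer ones, and that of the remaining peaks 66.7 and 44.6 per Mb. Gene density was not taken into account, and it varies along the autosomes as well.

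The central share of broad regions was above that of remaining peaks on 5 of 6 chromosomes. It was 63.3% against 47.0% on V, 57.1% against 37.2% on III, 52.3% against 43.3% on II, 46.3% against 41.6% on IV and 45.5% against 44.8% on I. On I, II and IV the interval of the broad regions took in the share of the remaining peaks (on II it was 36.7% to 67.5%), while on III (41.0% to 72.3%) and V (48.3% to 76.6%) it did not. On X the order was turned round, with 28.8% of 52 broad regions (17.1% to 43.1%) and 37.1% of 782 remaining peaks in the centre, and the interval again took in the other share.

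**Figure D2:**
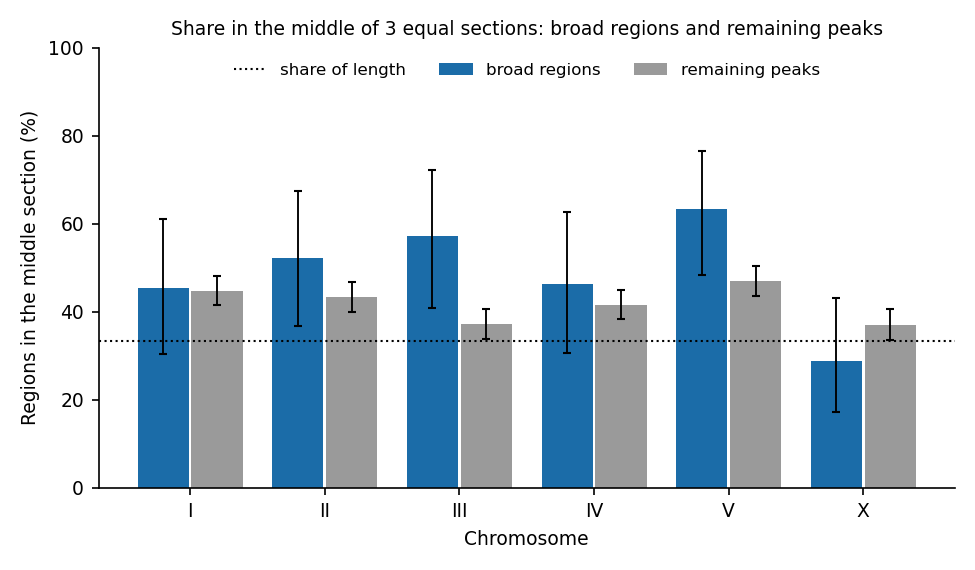
Bars give the percentage of broad regions (blue) and of remaining peaks (grey) whose midpoint lies in the middle section of each chromosome, with exact binomial 95% intervals, and the dotted line marks the 33.3% of length in that section. The blue bar is the higher one on chromosomes I to V and the lower one on X, where it stands at 28.8% against 37.1%.

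Inside the group the central share was lowest among the narrowest and the weakest regions. It was 35.7% of the 84 regions under 1600 bp, 53.8% of the 65 from 1600 to under 2000 bp, 52.5% of the 80 from 2000 to under 3000 bp, 61.9% of the 21 from 3000 to under 4000 bp and 54.5% of the 22 above that. By q-value it was 36.1% of 61 broad regions weaker than 1e-10 and 60.0% of 70 at 1e-40 or below. For remaining peaks it was 41.4% of 3939 weaker than 1e-10 and 54.1% of 61 at 1e-40 or below. Among regions with a q-value below 1e-20, the central share was 55.1% of 147 broad regions (46.7% to 63.3%) and 50.1% of 347 remaining peaks (44.8% to 55.5%), and the interval of the broad regions took in the share of the remaining peaks. On the autosomes alone it was 60.8% of 120 (51.5% to 69.6%) and 50.5% of 297 (44.7% to 56.3%). There the interval of the broad regions did not take in that share, though the 2 intervals overlap. The cut at 1e-20 was chosen after the data had been seen, and it does not make the groups equal in strength. Below it the median q-value on the autosomes was 1.95e-38 for broad regions and 3.26e-28 for remaining peaks. Whether the central shares differ at equal strength was not tested.

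On X the broad regions were most frequent in the right section, which was noticed only after the values had been seen. It held 27 of 52 broad regions, or 51.9% (37.6% to 66.0%), and 281 of 782 remaining peaks, or 35.9% (32.6% to 39.4%). The interval of the broad regions did not take in the share of the remaining peaks. Because the section was picked for its high count, no conclusion is drawn from that interval. The eighth of 10 equal parts of X held 13 broad regions and 94 remaining peaks, and broad regions were 12.1% of its peaks, against 6.24% on the whole of X. Another 8 broad regions lay in the fourth part, while the sixth and seventh parts held 3 each. On chromosome V the sixth part was the fullest, also with 13 broad regions, but it held 151 remaining peaks. Broad regions were 7.93% of its peaks, against 5.62% on the whole of V. On chromosome II the sixth and seventh parts held 12 and 11. They were 10.3% of the peaks in each of these parts, against 5.10% on the whole of II. In 4 of the 60 parts of the genome there was no broad region, namely the last part of I, the second of II, the second of III and the first of IV. These 4 parts held 69, 33, 60 and 97 remaining peaks. Among regions with a q-value below 1e-20, the right section of X held 12 of 27 broad regions, or 44.4% (25.5% to 64.7%) and 13 of 50 remaining peaks, or 26.0% (14.6% to 40.3%), and the interval of the broad regions took in that share.

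**Figure D3:**
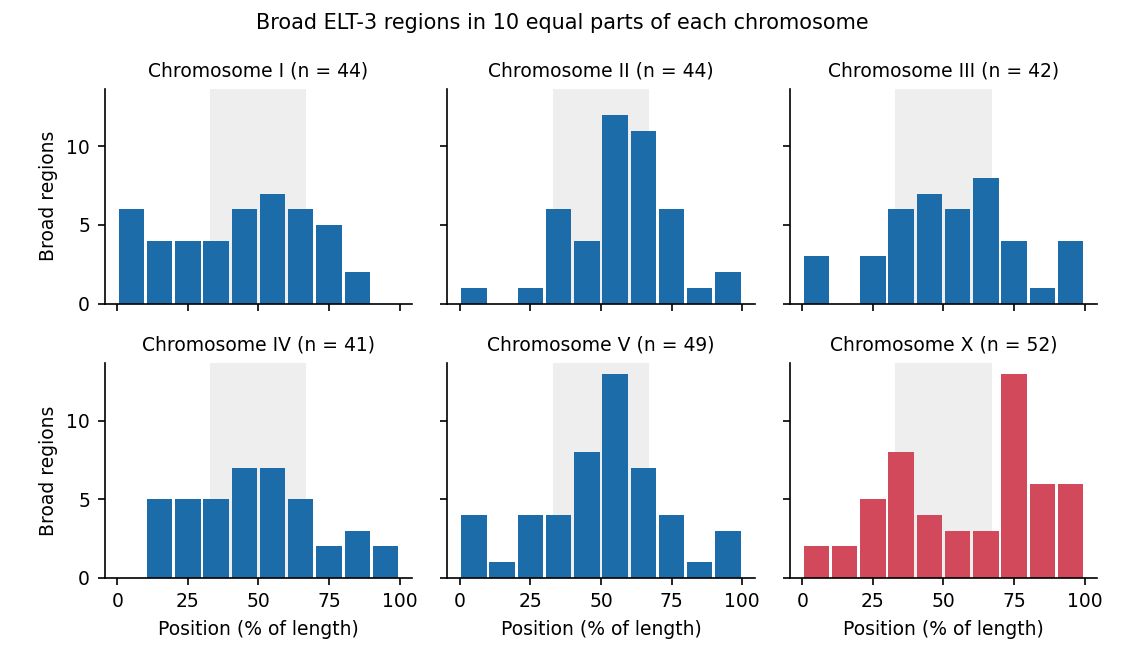
Bars count the broad regions in each of 10 equal parts of the 6 chromosomes, with position as a percentage of the length and the middle section shaded. The fullest parts of II and V, with 12 and 13 regions, lie inside the shading, and the fullest part of X, also with 13, lies to the right of it.

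Broad regions had other broad regions close by more often than the remaining peaks did. Measured between edges, another broad region lay within 10 kb of 61 of 272 broad regions, or 22.4% (17.6% to 27.9%), and of 498 of 5066 remaining peaks, or 9.83% (9.02% to 10.7%). Within 2 kb the shares were 14.0% (10.1% to 18.7%) and 4.13% (3.59% to 4.71%). These intervals do not overlap at either distance, but both regions of a close pair are counted, so they are not independent. Within 100 kb the shares were 52.6% (46.5% to 58.6%) and 46.5% (45.1% to 47.9%), and the median distance was 86.1 kb for broad regions and 113.5 kb for remaining peaks. The quartiles were 14.0 and 214.0 kb for broad regions and 40.2 and 272.5 kb for remaining peaks.

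The mean number of broad regions within 10 kb was 0.346 around broad regions and 0.114 around remaining peaks, and it was the higher around broad regions on 6 of 6 chromosomes. Of all peaks within 10 kb, 13.9% were broad around broad regions and 5.82% around remaining peaks. Chromosome II had the highest share around broad regions, 20.7%, and III the lowest, 7.92%. The value on II leaned on 1 place. There 11 of 44 broad regions had another within 10 kb, and 5 of these, next to each other, had 3 or 4 each. The median distance did not show the same order everywhere. On X it was 134.3 kb for broad regions and 92.6 kb for remaining peaks, and on I it was 120.3 and 96.6 kb. Among regions with a q-value below 1e-20 the medians were 88.9 kb for broad regions and 85.3 kb for remaining peaks, while a broad region within 10 kb was found for 23.8% of the 147 broad regions (17.2% to 31.5%) and for 15.6% of the 347 remaining peaks (11.9% to 19.8%). These intervals overlap, although that of the broad regions does not take in the share of the remaining peaks. On X alone the order at this q-value was the opposite, with 14.8% of 27 broad regions (4.19% to 33.7%) and 22.0% of 50 remaining peaks (11.5% to 36.0%).

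**Figure D4:**
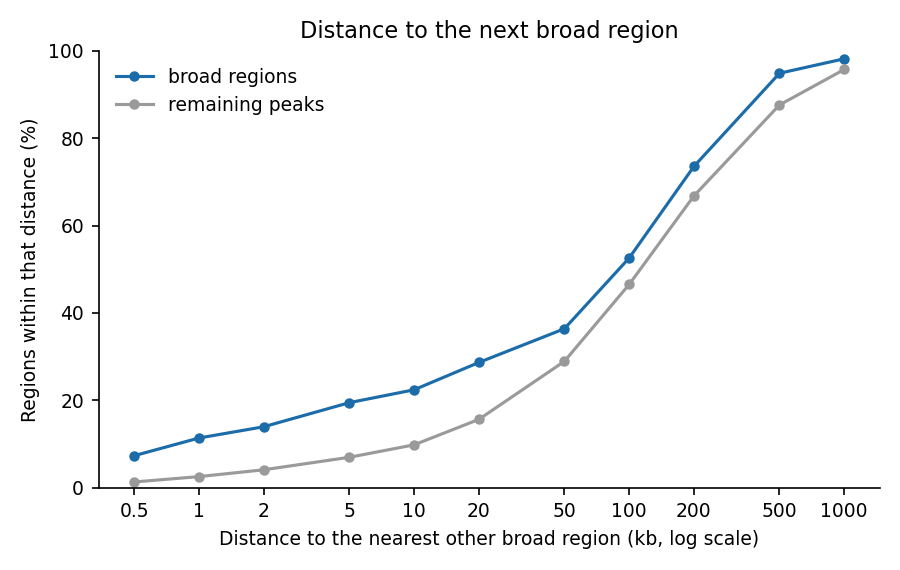
The lines give the percentage of the 272 broad regions (blue) and of the 5066 remaining peaks (grey) that have another broad region within the distance on the log axis, in kb between edges. The lines are apart at short distances, with 22.4% against 9.83% at 10 kb, and closer together at 100 kb, with 52.6% against 46.5%.

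When each next broad region within 10 kb was taken into the same run, 211 broad regions stood alone and 61 formed 25 runs. Of these runs 18 held 2 broad regions, 4 held 3, 2 held 4 and 1 held 5. Each chromosome had 4 runs except V, which had 5. In the middle section of their chromosome lay 16 of the 25 runs, beside 132 of the 272 broad regions, or 48.5%. Whether runs differ from single broad regions in this was not tested. The run of 5 was on chromosome II from 10541904 to 10559989, at 69.1% of its length, and its broad regions covered 12.9 kb of 18.1 kb. They measured 3539, 2320, 2953, 2470 and 1663 bp from left to right, and their q-values were 1.33e-15, 1.40e-09, 6.78e-33, 6.71e-09 and 5.23e-07. A single smaller peak of 1093 bp lay among them, at 10546114 to 10547206 with a q-value of 0.00578. None of the 5 was among the 100 strongest regions of the list.

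The runs of 4 were on chromosome IV from 9512822 to 9535534, with 4 smaller peaks inside, and on chromosome V from 10711178 to 10723793, with 1. Their lowest q-values were 5.43e-42 and 3.59e-33. The run of 3 on X from 6735372 to 6750900 held the eighth widest region of the list, and its broad regions covered 11.3 kb of 15.5 kb.

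The closest pair of broad regions was on chromosome II, where regions of 1555 bp (8741225 to 8742779, q-value 4.53e-41) and 4781 bp (8742980 to 8747760, q-value 6.29e-77) were 200 bp apart, the smallest gap between any neighbours in the list. The next pairs were on chromosome V, at 723679 to 728495 and 728724 to 730759 with a gap of 228 bp, and in the run of 5 on chromosome II with a gap of 233 bp. There were 10 pairs of broad regions within 500 bp of each other, and no smaller peak lay between the regions of any of them. With at least 200 bp between any neighbours in the list, such gaps leave little or no room for one. Nothing is read from this absence. How far apart pile-ups had to be to stay separate regions was not stated in the sources used here, so the parting of such pairs was not tested.

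The longest stretches between consecutive broad regions lay in an outer section on each autosome and in the middle section on X. Stretches at the chromosome ends were not counted, and on I and IV a longer one lay there. Remaining peaks were up to 2320.8 kb (I) and 2167.4 kb (IV) from a broad region, while the longest counted stretches were 1091 and 1555.5 kb. The longest counted stretch of all was 3769.0 kb on chromosome II, from 321690 to 4090694, which held 96 smaller peaks. On chromosome III the longest ran 2962.9 kb from 834085 to 3797021 with 136 smaller peaks, and on V 2738.7 kb from 16782114 to 19520782 with 47. The longest on X was 1478.0 kb from 10055422 to 11533459, right of the middle of the chromosome, and held 84 smaller peaks.

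Smaller peaks, meaning those under 1300 bp, were more numerous within 10 kb of broad regions than within 10 kb of remaining peaks. The mean was 2.13 ± 1.49 (SD over 272 regions) around broad regions and 1.85 ± 1.70 (SD over 5066 peaks) around remaining peaks, with a median of 2 in both. The exact Poisson 95% interval of the mean around broad regions, which covers counting error only, was 1.96 to 2.31. Broad regions close to each other can count the same smaller peak, so the counts are not independent, as that interval assumes. The mean around broad regions was the higher one on 6 of 6 chromosomes. The means were furthest apart on V, with 2.18 against 1.70, and closest on II, with 2.09 against 2.00. No smaller peak lay within 10 kb of 33 broad regions (12.1%) and of 1176 remaining peaks (23.2%). At the other end, 5 or more smaller peaks surrounded 6.25% of broad regions and 7.30% of remaining peaks.

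The density of smaller peaks was highest next to the edge around both kinds of region. In the first 1 kb from the edge there were 0.244 smaller peaks per kb of flank around broad regions and 0.154 around remaining peaks. From 1 to 2 kb the values were 0.151 and 0.129, from 2 to 5 kb they were 0.107 and 0.0934, and from 5 to 10 kb they were 0.0699 and 0.0726. A smaller peak within 1 kb was present at 43.0% of broad regions and 27.1% of remaining peaks. Another region of any width lay within 500 bp of 79 broad regions (29.0%) and 706 remaining peaks (13.9%), and the median gap to the nearest region was 1034 bp for broad regions and 2561 bp for remaining peaks.

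**Figure D5:**
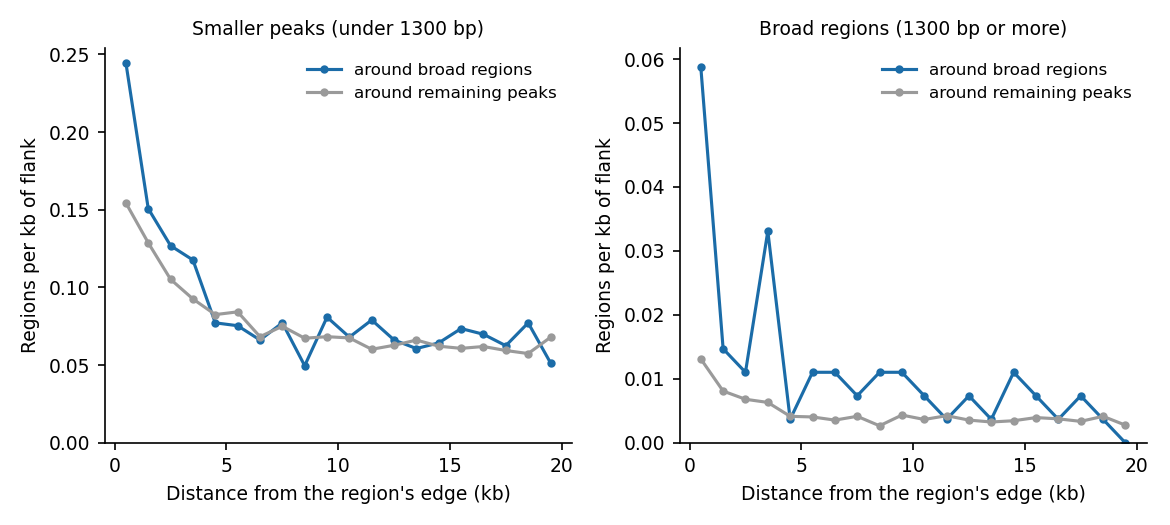
Each point gives the number of smaller peaks (left) or broad regions (right) per kb of flank, in steps of 1 kb from the edge, around broad regions (blue) and remaining peaks (grey). The lines for smaller peaks start at 0.244 and 0.154 in the first step and run together from about 5 kb, and those for broad regions start at 0.0588 and 0.0131.

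Among regions with a q-value below 1e-20 the order of the counts was turned round, with a mean of 2.26 smaller peaks within 10 kb of 147 broad regions and 2.61 within 10 kb of 347 remaining peaks. This split was chosen after the data had been seen. Within the 272 broad regions Spearman's coefficient between width and the count was -0.109, given as a description. The mean count around broad regions was 1.69 for the 61 weaker than 1e-10 and between 2.23 and 2.29 in the stronger classes. Around remaining peaks it was 1.75 for those weaker than 1e-10. From 1e-10 to 1e-20 the means were 2.27 for broad regions and 2.06 for remaining peaks. In the classes below 1e-20 they were 2.23 against 2.59, and 2.29 against 2.70 in the strongest. Broad regions thus had the higher mean only in the class from 1e-10 to 1e-20.

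The smaller peaks within 10 kb of a broad region numbered 498, with a median width of 518 bp and a median q-value of 1.83e-06. The 4568 smaller peaks farther away had a median width of 404 bp and a median q-value of 1.57e-05. A q-value below 1e-20 was carried by 10.8% of the near ones and 6.41% of the far ones.

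The broad region with the most smaller peaks within 10 kb was on X at 13349385 to 13351710, with 7 of them. It was 2326 bp wide (q-value 1.65e-08). Regions on chromosome I at 10560108 to 10561776 (1669 bp, q-value 8.45e-12) and on chromosome II at 4747074 to 4749029 (1956 bp, q-value 1.64e-43) had 6 each. At the other extreme, 29 broad regions (10.7%) and 1104 remaining peaks (21.8%) had no peak of any width within 10 kb. The most isolated broad region, of 1386 bp, was at 9789155 to 9790540 on chromosome V (q-value 8.23e-10), with its nearest peak 47612 bp away. It was followed by a region on X at 3787282 to 3789063 (1782 bp, q-value 7.31e-19, nearest peak at 27397 bp) and by one on chromosome V at 14684685 to 14688863, which was 4179 bp wide with a q-value of 4.33e-37 and its nearest peak 23571 bp away.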

How the data were processed

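The authors deposited 1 combined list of regions with a q-value each. Per the file headers, positions refer to WormBase WS180, and each line names PeakSeq, a caller that sets ChIP against input. How replicates were combined, the aligner, the filters and the versions are not given in the sources used here. Depth is unknown.

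Width was end minus start plus 1, and regions were placed by their midpoint. Each chromosome was taken to run from position 1 to its last peak end. Distances ran from edge to edge, so that each region had flanks of 10 kb whatever its own width. Named regions followed a fixed rule (widest, strongest, weakest, nearest the threshold, closest pairs, largest run, most and fewest neighbours). The members, the rule and the measures were chosen with earlier results of these data known. No p-value was computed. The measures were checked on simulated lists. Python 3.11.15, numpy 2.4.6, pandas 2.3.3 and scipy 1.17.1 were used. Alternatives were other widths, distances and lengths, joining within 500 bp, the stronger 50% of the list and each chromosome left out.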

Additional observations from a re-analysis of the deposited data

How the results depend on the processing

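No paired analysis was possible because single libraries have no values in the combined list, and no replicate could be left out. The number of broad regions was 490 at 1000 bp, 123 at 2000 bp and 433 after joining regions within 500 bp. The median distance to the next broad region was 32.0 kb at 1000 bp, 131 kb at 1600 bp, 181 kb at 2000 bp and 54.6 kb after joining, each time below that of the other peaks. The mean number of smaller peaks was 1.88 at 1000 bp, 1.78 after joining, 1.22 in the stronger 50% of the list, 1.93 between midpoints, 1.43 within 5 kb and 3.48 within 20 kb, each time above the mean around the other peaks. After joining, the X share of 15.7% was below that of the others. For q-values below 1e-20, a setting chosen after seeing the data, the central share was 55.1%, the median distance of 88.9 kb was above that of the remaining peaks and the mean of 2.26 smaller peaks was below theirs. The cause of these changes was not tested. Each chromosome left out in turn kept the direction of the central share, the distance and the neighbour count. Neither depth nor detection limit is known.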

Other observations

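After regions within 500 bp had been joined, 433 of 4916 regions were 1300 bp or wider. Of these, 240 were made of several listed regions and 193 of 1. A total of 172 held no region listed as broad, and 11 held 2 or more of them. The widest joined region was on chromosome I at 6574239 to 6584224 with 9986 bp, followed by X at 6735372 to 6744942 with 9571 bp.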
